A study of Mus musculus with 12 samples.

Results

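The genes described here carry signals from receptors on the cell surface to second messengers inside the cell. They are the subunits of heterotrimeric G proteins, the adenylyl cyclases and phospholipase C beta enzymes that these subunits control, protein kinase C (PKC), protein kinase A (PKA), calmodulin with its kinases, and phosphodiesterases. Members were all genes whose symbols carry the stems of these 11 families, and 84 of the 21960 genes listed for each tumor matched. The families were chosen from opioid and calcium gene sets that the study named for tumors given doxorubicin. The comparison of DOX/IgG1 with IgG1 tumors therefore took part in the choice, and its values are a description without p values of members. The tumors given anti-PD-1, with or without doxorubicin, are from other animals, and the comparison between those 2 groups carries the tests, though earlier results of these tumors were known too when the families were chosen. In the 2 comparisons that share tumors with the choice, p values of members are not given either.

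RNA was sequenced from whole mammary tumors of 12 female C57BL/6 mice, 3 in each of 4 groups, in which the MMTV promoter drives the polyoma middle T oncoprotein (PyMT) in mammary epithelium. IgG1 mice received a control antibody and anti-PD-1 mice an antibody against PD-1, a receptor that restrains T cells, at 20 mg/kg first and 10 mg/kg later, from a first tumor of 0.6 cm in diameter. DOX/IgG1 and DOX/anti-PD-1 mice started at a first tumor of 1 cm and received 5 mg/kg doxorubicin, an anthracycline that damages DNA, with the same antibodies at 10 mg/kg a day after it. The labels give weekly treatment over 5 weeks for every tumor, while the protocol gives antibody every 6 days where no doxorubicin was used. Starting size, antibody dose and schedule changed together with doxorubicin, so their effects cannot be told apart. In the files, the column headers of the 3 DOX/anti-PD-1 tumors end in Cov.2 and those of the 9 other tumors in Cov.1. What this mark means is not given, and an effect of it cannot be told apart from that of the DOX/anti-PD-1 treatment. The header of DOX/IgG1 replicate 1 also carries the word test, without a meaning given, and this tumor had the lowest fibroblast and luminal epithelium marker sums of the 12 (549 and 2137 TPM). The ages of the mice at sampling are not given in the sources used here.

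As background, a ligand-bound receptor makes the G alpha subunit exchange GDP for GTP and part from the G beta and G gamma pair. Gs activates adenylyl cyclase, which makes cyclic AMP (cAMP), and Gi, the class used by opioid receptors, inhibits it, while Gq activates phospholipase C beta, whose products release calcium and activate PKC. cAMP releases the catalytic subunits of PKA from its regulatory subunits, calcium acts through calmodulin on CaM kinases and phosphodiesterase 1, and phosphodiesterases end the cAMP signal.

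Levels are TPM, a unit in which the values of a full transcript set add up to the same sum in every sample and are scaled to transcript length, so levels of different genes can be compared. No read counts are given, so sequencing depth is not known, and a gene without signal is called listed at 0. Of the 84 members, 56 reached 1 TPM in all 12 tumors, 44 averaged at least 10 TPM and 11 at least 100 TPM. Gnat3, Gng4 and Gng13 were listed at 0 in every tumor, and 21 members were at 0 in at least 1 tumor. In bulk tissue, fewer cells of a type and less RNA per cell cannot be told apart.

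The tumors differed in tissue content before any member is considered. All 8 luminal epithelium markers were listed, led by Epcam, and summed to 2137 to 4211 TPM. The 12 skeletal muscle markers, led by Acta1, summed to 209, 58.3 and 727 TPM in IgG1 tumors, 830.0, 74.1 and 40.9 TPM across anti-PD-1 tumors, 84.6, 212 and 250.3 TPM in DOX/IgG1 tumors and 1329.5, 17.6 and 247 TPM across DOX/anti-PD-1 tumors. Muscle RNA was thus high in IgG1 replicate 3, anti-PD-1 replicate 1 and DOX/anti-PD-1 replicate 1. The 10 adipocyte markers, led by Cfd, summed to 112 to 366 TPM in IgG1, 115 to 184 TPM in anti-PD-1, 207, 1012 and 166 TPM in DOX/IgG1 and 950.4, 325 and 286 TPM across DOX/anti-PD-1 tumors, with the highest sums in DOX/IgG1 replicate 2 and DOX/anti-PD-1 replicate 1.

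Several sums separated the groups. The 8 listed of 9 salivary secretory markers, led by Amy1, summed to 64.4, 113 and 120.0 TPM in DOX/IgG1 tumors and to 6.41 to 18.7, 5.40 to 28.3 and 16.0 to 26.4 TPM in IgG1, anti-PD-1 and DOX/anti-PD-1 tumors. Smooth muscle and pericyte markers (9, led by Acta2) summed to 246, 363 and 377 TPM in anti-PD-1 and 573, 460.3 and 878 TPM across DOX/anti-PD-1 tumors, and fibroblast markers (8, led by Col1a1) to 942, 861 and 709 and 1098, 1436 and 1602 TPM. T cell markers (7 of 8 listed, led by Cd3e) summed to 9.02, 20.8 and 9.91 and 21.1, 28.1 and 36.6 TPM in the same groups. Fibroblast, smooth muscle, adipocyte and T cell sums were thus all higher in each DOX/anti-PD-1 tumor than in any anti-PD-1 tumor as deposited. The T cell sums overlapped after the scaling described below. Fibroblast sums were 1231, 1162 and 1824 TPM in IgG1 tumors. Each anti-PD-1 tumor thus also lay below all IgG1 tumors in this sum, before and after scaling.

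The other lists overlapped between the anti-PD-1 groups with and without doxorubicin. Over all 12 tumors, Schwann cell and glia markers (9, led by Sox10) summed to 93.5 to 296 TPM, endothelial markers (8, led by Pecam1) to 105 to 219 TPM and macrophage markers (8, led by Lyz2) to 317 to 819.6 TPM. Basal epithelium markers (6, led by Oxtr, which is also among the receptors below) summed to 79.1 to 275 TPM. B cell markers (7, led by Cd22) summed to 1.21 to 13.1 TPM. B cell sums were lower in anti-PD-1 (1.21 to 2.46 TPM) than in IgG1 tumors (3.08 to 5.56 TPM), before and after scaling. Endothelial sums were lower in anti-PD-1 than in IgG1 tumors as deposited and overlapped after scaling. Neuron markers (10, led by Uchl1) reached only 0 to 7.68 TPM, with Nefm and Elavl4 listed at 0 in all 12 tumors, so RNA of neuronal cell bodies was near 0. No other marker was at 0 in all tumors. The part of tissue content in the results that follow was not tested.

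**Figure D1:**
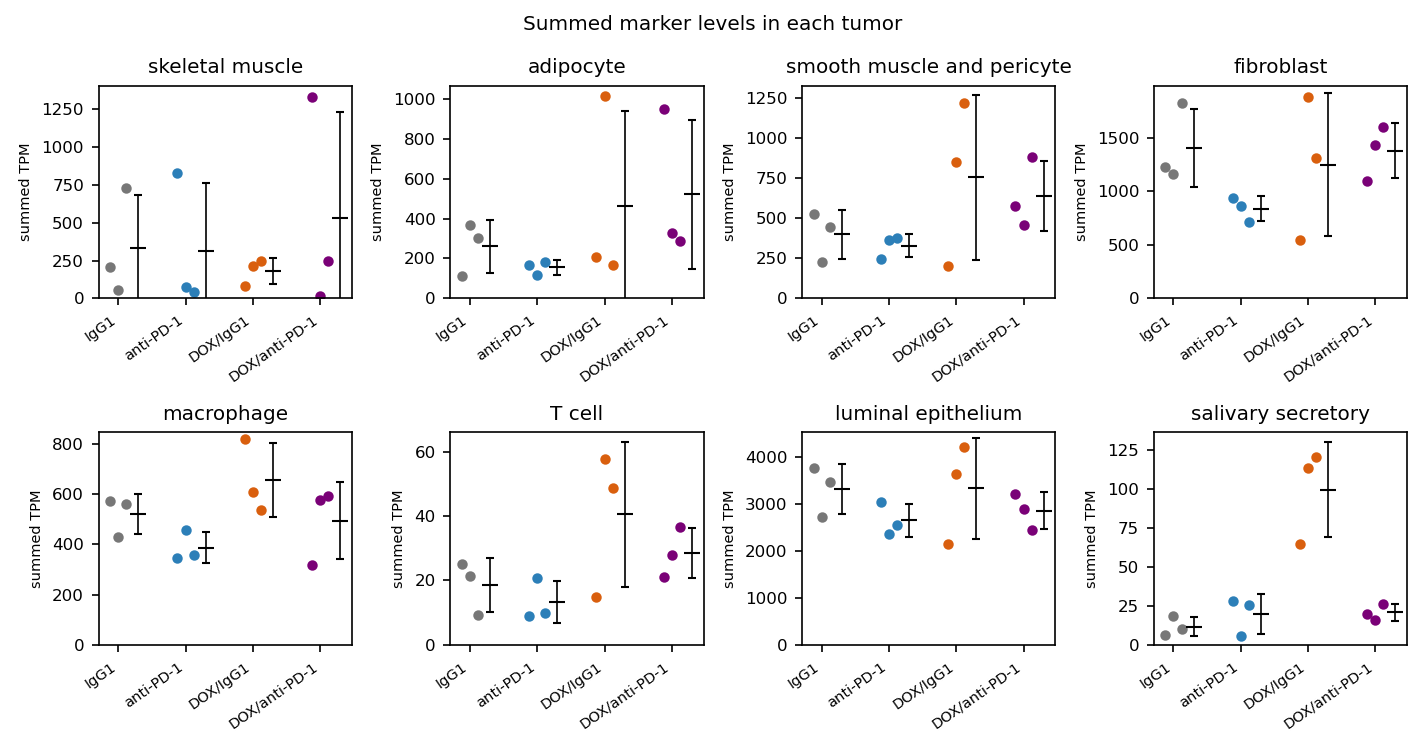
Summed TPM of 8 marker lists. Each point is 1 tumor, and the bar to its right gives the mean and SD of 3 tumors, drawn down to 0 at most; the salivary sums of the 3 DOX/IgG1 tumors (64.4, 113 and 120.0 TPM) lie above those of the 9 other tumors.

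In DOX/anti-PD-1 against anti-PD-1 tumors, no member combined an adjusted p below 0.1 with an absolute log2 fold change above 1. These limits are those of the study, but they were applied here to limma on TPM of 6 tumors and not to the fit of the study, so a lack of calls is not a count at its own test. Of the 84 members, 68 had 1 TPM or more in 3 or more of the 6 tumors and were tested by limma among 13736 genes, and 0 members and 0 genes (0%) were called. At an unadjusted p below 0.05 there were 4 members of 68, among them Adcy4, Plcb4 and Prkch, beside 8.63% of all genes tested. All 3 DOX/anti-PD-1 tumors were above all 3 anti-PD-1 tumors in 9 members (Gnai1, Gna11, Gnb2, Adcy4, Adcy7, Prkch, Camk2g, Camk2n1 and Pde4a), or 13.2% of those tested, beside 11.1% of all genes. They were below in 2 members, Plcb4 among them, or 2.94%, beside 3.84% of all genes, so both shares lay near the background in the deposited values.

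The median log2 fold change (the difference of mean log2(TPM + 1)) of the tested members was 0.24, and that of all genes tested was 0.11. Scaling each tumor by the median of its gene ratios moved the all-gene median to 0.0001 and the members' median to 0.12, so differences are best read against a general shift of 0.11. With that scaling, 8 of the 9 higher members and 2 of the 2 lower members still did not overlap between the groups, and Gnb2 did. Adcy9, Gna14 and Camk2d became lower without overlap, which made 5 lower members. The shares after scaling were 11.8% higher and 7.35% lower for members, beside 7.56% and 6.97% of all genes. When 1 tumor at a time was left out of the deposited values, the median ranged over 0.08 to 0.26 for members and 0.06 to 0.15 for all genes, and without DOX/anti-PD-1 replicate 3 the members (0.08) lay below all genes (0.13).

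Promoter sequences are shown for Gnai1 and Pde4a, which were higher in all tumors with doxorubicin, for Plcb1 and Adcy5, which stood apart in DOX/IgG1 tumors, and for Prkar1a, whose promoter holds the cAMP response element. RefSeq entries (GRCm38.p6) matched 66 of the 84 members, with 108 start sites, and the 250 bases before each start were searched on both strands for the cAMP response element TGACGTCA, for its shorter core TGACG, which lies within it, and for the GC box GGGCGG. The full element was in 1 of 108 member promoters (0.926%), that of Prkar1a, and in 1.55% of all 32851 promoters. The core was in 20.4% of member promoters and 17.8% of all, and the GC box in 48.1% and 32.7%. Pde4a has 3 listed starts and Prkar1a 6, of which 1 each is shown. Each stretch below ends at the base before the start site, with cores and GC boxes on either strand in capitals. The stretches lie at chr5:18360414-18360663, minus strand (Gnai1), chr9:21165464-21165713, plus strand (Pde4a), chr2:134785914-134786163, plus strand (Plcb1), chr16:35154614-35154863, plus strand (Adcy5) and chr11:109650699-109650948, plus strand (Prkar1a).
Gnai1: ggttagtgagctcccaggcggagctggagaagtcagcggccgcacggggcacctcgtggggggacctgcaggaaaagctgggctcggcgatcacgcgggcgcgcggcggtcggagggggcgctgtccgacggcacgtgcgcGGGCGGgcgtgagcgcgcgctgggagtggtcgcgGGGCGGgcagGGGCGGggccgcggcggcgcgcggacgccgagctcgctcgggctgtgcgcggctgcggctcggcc
Pde4a: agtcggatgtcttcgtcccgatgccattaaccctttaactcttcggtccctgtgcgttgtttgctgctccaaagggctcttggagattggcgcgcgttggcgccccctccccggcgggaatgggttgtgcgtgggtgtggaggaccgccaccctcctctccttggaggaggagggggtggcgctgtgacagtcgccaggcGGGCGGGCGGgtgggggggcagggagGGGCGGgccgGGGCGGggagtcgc
Plcb1: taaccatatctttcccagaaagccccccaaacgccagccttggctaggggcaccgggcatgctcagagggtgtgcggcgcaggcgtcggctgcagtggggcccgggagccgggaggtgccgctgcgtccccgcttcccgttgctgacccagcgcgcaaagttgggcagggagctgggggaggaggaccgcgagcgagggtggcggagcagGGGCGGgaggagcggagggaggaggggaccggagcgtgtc
Adcy5: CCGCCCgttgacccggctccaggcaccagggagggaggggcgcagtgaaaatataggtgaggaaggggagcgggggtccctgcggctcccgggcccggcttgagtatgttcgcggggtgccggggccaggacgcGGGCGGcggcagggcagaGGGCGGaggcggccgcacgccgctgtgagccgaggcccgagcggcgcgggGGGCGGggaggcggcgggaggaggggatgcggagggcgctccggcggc
Prkar1a: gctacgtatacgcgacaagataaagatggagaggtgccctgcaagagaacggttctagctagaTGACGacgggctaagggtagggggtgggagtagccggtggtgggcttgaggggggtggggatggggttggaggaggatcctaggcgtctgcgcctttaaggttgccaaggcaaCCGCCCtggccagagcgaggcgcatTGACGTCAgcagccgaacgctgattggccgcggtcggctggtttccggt
GC boxes numbered 3, 4, 1 and 4 in the stretches of Gnai1, Pde4a, Plcb1 and Adcy5, and none of these stretches held the core, though another start of Pde4a did. In Prkar1a the full element begins 49 bases before the start.

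G alpha subunits (16 members, 14 tested in this comparison) set which enzyme a receptor reaches. Gnas, the Gs subunit, was the most abundant of them on average, at 347, 328 and 299.8 TPM in IgG1, 226, 334 and 462 TPM in anti-PD-1, 252, 320.0 and 283 TPM in DOX/IgG1 and 319.8, 379 and 206 TPM across DOX/anti-PD-1 tumors, and the groups overlapped throughout. Gs, Gi/o, Gq/11 and G12/13 subunits made up 26.6 to 50.8%, 32.6 to 47.5%, 7.63 to 20.6% and 5.19 to 10.7% of the summed G alpha TPM over the 12 tumors. Gs and Gi/o transcripts were thus present in similar amounts, most of the latter from Gnai2 (184 to 306 TPM) and Gnai3 (46.5 to 89.3 TPM). Summed Gi/o levels were 336, 329.6 and 299 TPM in anti-PD-1 and 395, 353 and 349.5 TPM across DOX/anti-PD-1 tumors, without overlap as deposited and with overlap after scaling.

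Gnai1 (ENSMUSG00000057614, chr5:18265135-18360355, minus strand), a Gi subunit at low level, stood at 0.42, 1.59 and 1.64 TPM in IgG1, 1.02, 1.18 and 1.24 TPM in anti-PD-1, 2.84, 8.15 and 6.35 TPM in DOX/IgG1 and 2.35, 1.76 and 3.19 TPM across DOX/anti-PD-1 tumors. All 6 tumors with doxorubicin were above all 6 without it. The log2 fold change was 0.66 (SE 0.43) in DOX/anti-PD-1 against anti-PD-1 tumors, with an adjusted p of 0.695 by limma and p = 0.1 by a two-sided exact permutation test, the smallest that 3 tumors against 3 can give. Groups without overlap always give this exact p. Members were named for that lack of overlap, so an exact permutation p of 0.1 here and below adds nothing to it. Between DOX/IgG1 and IgG1 tumors it was 1.58 (2.23 with 0.1 rather than 1 added to the TPM), a value from the comparison by which the families were chosen.

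Other G alpha members differed in fewer groups. Gnaz, a Gi class subunit insensitive to pertussis toxin, stood at 2.11, 1.49 and 1.24 TPM in IgG1 and 4.42, 4.64 and 5.37 TPM in DOX/IgG1 tumors without overlap (log2 fold change 1.16, or 1.55 with 0.1 added to the TPM), and at 2.89, 2.04 and 0.67 and 4.44, 1.42 and 2.69 TPM with anti-PD-1, where the groups overlapped. Gna14, of the Gq class, was at 7.89, 12.4 and 9.99 TPM in DOX/IgG1 and 3.25, 7.68 and 4.92 TPM across DOX/anti-PD-1 tumors (log2 fold change -0.86). Gna13, of the G12/13 class, was at 22.8, 26.2 and 28.3 TPM in IgG1 and 36.3, 29.4 and 35.1 TPM across anti-PD-1 tumors (log2 fold change 0.37), again without overlap. The others ranged over 38.1 to 121 TPM (Gnaq), 16.1 to 32.6 TPM (Gna12), 12.1 to 35.1 TPM (Gna11, higher without overlap in DOX/anti-PD-1 against anti-PD-1 tumors, log2 fold change 0.46), 3.68 to 19.3 TPM (Gnao1), 0.95 to 8.4 TPM (Gna15), 1.67 to 5.22 TPM (Gnal), 0 to 7.21 TPM (Gnat1) and 0 to 2.74 TPM (Gnat2).

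G beta and G gamma subunits pair and signal together. Gnb1 was the most abundant G beta gene (175 to 299 TPM; 217 ± 37.2 TPM in anti-PD-1 and 258 ± 44.3 TPM across DOX/anti-PD-1 tumors, SD, n = 3), and Gng12 the most abundant G gamma gene. Gnb2 was at 109.8, 109 and 99.5 TPM in IgG1, 80.7, 92.5 and 88 TPM in anti-PD-1, 107, 108 and 103 TPM in DOX/IgG1 and 114, 146 and 97.8 TPM across DOX/anti-PD-1 tumors. Its anti-PD-1 tumors were the lowest of the 12 as deposited (log2 fold change -0.28 against IgG1), and overlapped with IgG1 tumors after scaling. Summed over the 5 G beta genes, the levels were 282, 337 and 344 TPM in anti-PD-1 and 359, 430.0 and 423 TPM across DOX/anti-PD-1 tumors and did not overlap, also after scaling. Gnb4 and Gnb5 ranged over 4.36 to 15.5 and 3.78 to 25.5 TPM, and Gnb3 was at 0 in most tumors (0 to 3.53 TPM).

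Gng12 was at 50.5, 48.2 and 62.5 TPM in IgG1, 39.4, 43.4 and 41.6 TPM in DOX/IgG1 and 53.3, 47.4 and 51.2 TPM across DOX/anti-PD-1 tumors. The DOX/IgG1 tumors were the lowest of the 12, with log2 fold changes of -0.36 against IgG1 and, read from DOX/anti-PD-1 versus DOX/IgG1, 0.28. Gng5 was at 20.7, 21.0 and 24.8 TPM in IgG1 and 35.1, 28.1 and 27.9 TPM across anti-PD-1 tumors without overlap (log2 fold change 0.44), and at 22.0, 25.4 and 19.8 TPM in DOX/IgG1 and 24.5, 33.4 and 16.4 TPM across DOX/anti-PD-1 tumors, with overlap in both doxorubicin comparisons. The sum over the 10 G gamma genes stayed within 104 to 127 TPM in all tumors. Gng11, Gng2, Gng10, Gng7, Gng8 and Gng3 ranged over 5.15 to 23.1, 3.75 to 17.7, 3.57 to 10.8, 1.22 to 8.15, 0 to 12.1 and 0 to 1.89 TPM.

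Adenylyl cyclases make cAMP. Summed over their 10 genes, they reached 71.4, 97.5 and 113 TPM in IgG1, 85.8, 70.8 and 84.3 TPM in anti-PD-1, 138, 138 and 121 TPM in DOX/IgG1 and 96.1, 95.2 and 96.0 TPM across DOX/anti-PD-1 tumors. Each DOX/IgG1 tumor was above the 9 other tumors, before and after scaling. DOX/anti-PD-1 tumors were above anti-PD-1 tumors as deposited, but overlapped with them after scaling (85.0 to 96.8 TPM and 74.4 to 89.5 TPM). Adcy6, Adcy9 and Adcy7 supplied most of these transcripts, with 22.0 to 40.5%, 21.0 to 29.7% and 10.5 to 30.2% of the sum.

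Mean Adcy6 levels were near each other (36.6 ± 9.19 TPM in IgG1 and 34.4 ± 6.90 TPM in DOX/IgG1 tumors, SD, n = 3), while those of Adcy7 were 16.3 ± 3.54 TPM and 27.6 ± 11.6 TPM, with overlap. Adcy5 (ENSMUSG00000022840, chr16:35154877-35305738, plus strand), which Gi inhibits and calcium inhibits directly, was at 1.48, 2.94 and 2.61 TPM in IgG1, 3.62, 1.13 and 2.27 TPM in anti-PD-1, 4.71, 11.5 and 7.29 TPM in DOX/IgG1 and 3.11, 2.67 and 3.76 TPM across DOX/anti-PD-1 tumors. The 3 DOX/IgG1 tumors were above all 9 others. The log2 fold change was 1.36 against IgG1 as a description, 0.39 in DOX/anti-PD-1 against anti-PD-1 tumors with overlap (adjusted p 0.829 by limma, exact permutation p = 0.4), and -1.01 in tumors of DOX/anti-PD-1 versus DOX/IgG1 without overlap. Adcy3, which calcium and calmodulin can modulate, was at 4.74, 7.59 and 5.69 TPM in IgG1, 21.3, 16.8 and 9.71 TPM in DOX/IgG1 and 15.3, 5.49 and 5.65 TPM across DOX/anti-PD-1 tumors, with a log2 fold change of 1.23 in the describing comparison. Adcy2 was at 8.94, 2.33 and 3.53 TPM in DOX/IgG1 and 2.17, 0.75 and 1.18 TPM across DOX/anti-PD-1 tumors (log2 fold change -1.21), without overlap as deposited and with overlap after scaling.

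Adcy4, a cyclase that G beta and G gamma stimulate together with Gs, gave the largest log2 fold change of the tested members in DOX/anti-PD-1 against anti-PD-1 tumors. It was at 0.94, 0.73 and 1.27 TPM in anti-PD-1 and 2.70, 2.32 and 4.42 TPM across DOX/anti-PD-1 tumors, and at 0.77, 0.88 and 2.42 and 1.97, 4.93 and 2.93 TPM in IgG1 and DOX/IgG1 tumors. The groups with anti-PD-1 did not overlap, while IgG1 replicate 3 lay above DOX/IgG1 replicate 1. This gave a log2 fold change of 1.04 (SE 0.44; adjusted p 0.562 by limma, exact permutation p = 0.1), at levels near the filter of 1 TPM. Adcy7 was at 18.8, 18.5 and 18.4 TPM in anti-PD-1 and 20.3, 25.2 and 23.3 TPM across DOX/anti-PD-1 tumors without overlap, before and after scaling (log2 fold change 0.29, adjusted p 0.758 by limma). Adcy2, Adcy8 (0 to 14.9 TPM), Adcy10 (0 to 2.69 TPM) and Adcy1 (0 to 1.13 TPM) did not pass that filter in DOX/anti-PD-1 against anti-PD-1 tumors.

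Phospholipase C beta turns the Gq signal into inositol trisphosphate and diacylglycerol. Summed over its 4 genes, the levels were 166, 181 and 176 TPM in anti-PD-1 and 117, 156 and 126 TPM across DOX/anti-PD-1 tumors, lower without overlap as deposited and after scaling (117 to 139 TPM with doxorubicin and 173 to 190.2 TPM without). In DOX/IgG1 against IgG1 tumors the sums overlapped. Plcb1 (ENSMUSG00000051177, chr2:134786067-135475258, plus strand) was at 26.9, 36.1 and 25.1 TPM in IgG1, 22.6, 22.7 and 38.7 TPM in anti-PD-1, 43.7, 52.7 and 53.1 TPM in DOX/IgG1 and 13.4, 19.7 and 26.7 TPM across DOX/anti-PD-1 tumors. The DOX/IgG1 tumors were above all 9 others. For DOX/anti-PD-1 versus DOX/IgG1 the log2 fold change was -1.33, lower in 3 of 3 tumors, and the DOX/IgG1 tumors of this comparison are those that helped to choose the families. In DOX/anti-PD-1 against anti-PD-1 tumors the groups overlapped and the log2 fold change was -0.48 (adjusted p 0.706), opposite in sign to the 0.76 between DOX/IgG1 and IgG1 tumors. The difference between these 2 effects was not tested.

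Plcb4 was the most abundant isoform on average, at 44.6, 187 and 126 TPM in IgG1, 113, 138 and 116 TPM in anti-PD-1, 33.8, 108 and 122 TPM in DOX/IgG1 and 65.3, 111 and 69.8 TPM across DOX/anti-PD-1 tumors. Without anti-PD-1 the tumors of a group differed by several fold, and with anti-PD-1 the groups did not overlap. The log2 fold change there was -0.61 (SE 0.26; adjusted p 0.556 by limma, exact permutation p = 0.1). Plcb1 made up 24.98 to 40.0% of the phospholipase C beta sum in DOX/IgG1 tumors and 11.5 to 21.1% in DOX/anti-PD-1 tumors. Plcb3 ranged over 17.4 to 31.6 TPM and Plcb2, an isoform of blood cells, over 0 to 12.4 TPM.

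**Figure D2:**
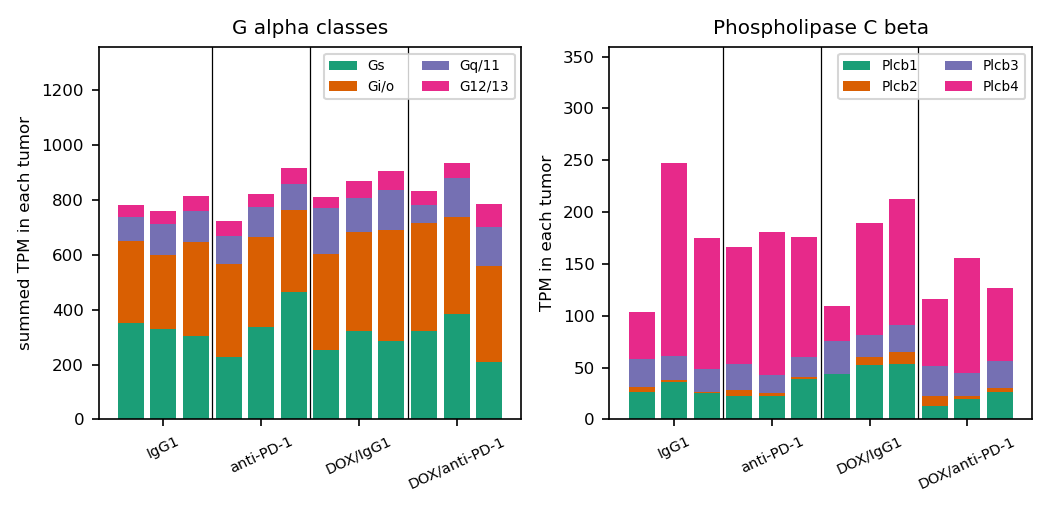
Stacked TPM in each of the 12 tumors for the 4 classes of G alpha subunits and the 4 phospholipase C beta genes, 3 bars a group. Plcb1 takes 24.98 to 40.0% of its stack in DOX/IgG1 tumors.

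Protein kinase C isoforms divide into conventional kinases that need calcium and diacylglycerol, others that need diacylglycerol alone, and atypical kinases that need neither. Prkci, an atypical isoform, was the most abundant over the 12 tumors (90.7 to 169.6 TPM; log2 fold change 0.16 in DOX/anti-PD-1 against anti-PD-1 tumors, with overlap). Prkch, a diacylglycerol-dependent isoform of epithelium and T cells, was at 8.21, 9.34 and 10.98 TPM in anti-PD-1 and 19.5, 26.4 and 12.0 TPM across DOX/anti-PD-1 tumors without overlap, and at 12.9, 10.0 and 12.9 and 8.90, 12.1 and 12.3 TPM in IgG1 and DOX/IgG1 tumors with overlap. Its log2 fold change in DOX/anti-PD-1 against anti-PD-1 tumors was 0.89 (SE 0.35; adjusted p 0.533 by limma, the lowest among the members, and exact permutation p = 0.1). Epithelial and T cell marker sums are given above, and the share of either in this difference was not tested.

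Prkcb, the conventional isoform of B cells and myeloid cells, was at 14.6, 19.0 and 23.5 TPM in DOX/IgG1 and 8.86, 14.3 and 12.3 TPM across DOX/anti-PD-1 tumors without overlap (log2 fold change -0.65). Prkcq, an isoform of T cells and skeletal muscle, was at 0.69, 2.45 and 3.60 TPM in IgG1 and 7.04, 4.70 and 3.76 TPM across anti-PD-1 tumors (log2 fold change 1.01), and its highest value lay in anti-PD-1 replicate 1, the anti-PD-1 tumor with the most muscle RNA. In IgG1 replicate 3, also high in muscle RNA, Prkcq was at 3.60 TPM, and the part of muscle RNA in its values was not tested. Prkca varied most among the abundant isoforms (14.4 to 171 TPM, lowest in DOX/IgG1 replicate 1). Prkcz had a log2 fold change near that of Adcy4 in DOX/anti-PD-1 against anti-PD-1 tumors (1.03, adjusted p 0.59 by limma), with overlap and its highest value in DOX/anti-PD-1 replicate 1. Prkcd, Prkce and Prkcz ranged over 53.0 to 127, 5.80 to 23.1 and 7.06 to 40.0 TPM, and their groups overlapped in all 4 comparisons.

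PKA holds its catalytic subunits inactive with regulatory subunits until cAMP binds. Prkar1a was the most abundant regulatory gene by far, at 530.4, 636 and 693 TPM in IgG1, 313, 654 and 751 TPM in anti-PD-1, 478, 974 and 809 TPM in DOX/IgG1 and 537, 741 and 1239 TPM across DOX/anti-PD-1 tumors, with overlap between all groups. It supplied 67.7 to 90.9% of regulatory transcripts, and summed regulatory TPM exceeded summed catalytic TPM by a ratio of 3.62 to 10.6 in the 12 tumors. Prkar2a was at 74.2, 80.5 and 90.3 TPM in DOX/IgG1 and 102, 127 and 107 TPM across DOX/anti-PD-1 tumors without overlap (log2 fold change 0.45). The catalytic genes Prkacb and Prkaca ranged over 51.4 to 119 and 23.4 to 48.9 TPM, and the log2 fold change of Prkacb in DOX/anti-PD-1 against anti-PD-1 tumors was 0.01, a sign that scaling turned. Summed over the catalytic genes, the groups of this comparison overlapped as deposited, and after scaling the DOX/anti-PD-1 tumors were lower (121.0 to 128 TPM beside 131 to 152 TPM). Prkar2b ranged over 16.5 to 59.8 TPM and Prkar1b over 0 to 11.7 TPM, with overlap in every comparison.

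Calmodulin, the main calcium sensor, is made from more than 1 gene, with the same protein sequence. Calm2 was at 982, 1172 and 940.4 TPM in IgG1, 1068, 903 and 1204 TPM in anti-PD-1, 929.7, 714 and 666 TPM in DOX/IgG1 and 1127, 674 and 580.2 TPM across DOX/anti-PD-1 tumors. Calm3 was at 347, 371 and 375, 204, 302 and 423, 378, 438 and 484 and 362, 364 and 386 TPM in the same order. Calm2 was thus above Calm3 in every tumor, and Calm2 was lower in each DOX/IgG1 than in any IgG1 tumor as deposited, with overlap after scaling.

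The log2 fold changes in DOX/anti-PD-1 against anti-PD-1 tumors were -0.47 for Calm2 (SE 0.30; adjusted p 0.691 by limma, exact permutation p = 0.3) and 0.32 for Calm3 (adjusted p 0.762), with overlap in both. In DOX/IgG1 against IgG1 tumors they were -0.43 and 0.24, as a description. Calm3 differed from Calm2 in sign in both comparisons. How reads were divided between these genes and near-identical copies is not given in the sources used here.

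CaM kinases (10 members with the inhibitors Camk2n1 and Camk2n2) phosphorylate proteins when calcium-bound calmodulin binds. Camk2d supplied 78.0 to 90.5% of the CaM kinase II transcripts, at 70.6 to 154 TPM (log2 fold change -0.18 in DOX/anti-PD-1 against anti-PD-1 tumors, with overlap as deposited). Camk2g, another kinase of this class, was at 10.9, 14.3 and 12.0 TPM in IgG1, 11.1, 10.4 and 11.4 TPM in anti-PD-1, 14.8, 24.2 and 30.4 TPM in DOX/IgG1 and 12.7, 17.8 and 22.2 TPM across DOX/anti-PD-1 tumors. Doxorubicin groups lay above their controls in both antibody backgrounds, before and after scaling. Its log2 fold change was 0.60 in DOX/anti-PD-1 against anti-PD-1 tumors (SE 0.31; adjusted p 0.616 by limma, exact permutation p = 0.1). Camk2g was picked out after its values were seen.

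Camk2n1, an inhibitor of CaM kinase II, was at 12.6, 11.1 and 12.9 TPM in IgG1, 5.38, 8.15 and 12.1 TPM in anti-PD-1, 13.4, 17.9 and 13.8 TPM in DOX/IgG1 and 12.3, 15.7 and 16.0 TPM across DOX/anti-PD-1 tumors. Its groups did not overlap in either doxorubicin comparison as deposited, but overlapped between DOX/IgG1 and IgG1 tumors after scaling. The log2 fold change in DOX/anti-PD-1 against anti-PD-1 tumors was 0.77 (SE 0.35; adjusted p 0.582 by limma, exact permutation p = 0.1). Camk2b, a neuronal and muscle isoform, was at 3.61, 1.73 and 5.07 TPM in IgG1 and 0.48, 1.70 and 1.54 TPM across anti-PD-1 tumors (log2 fold change -0.97), and these overlapped after scaling. Camk1 ranged over 35.3 to 86.8 TPM and Camk1d over 1.30 to 33.0 TPM, while Camk2a, Camk4, Camk2n2 and Camk1g stayed at or below 7.93, 1.98, 1.79 and 1.15 TPM.

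Phosphodiesterases break down cyclic nucleotides, PDE1 under calmodulin control and PDE4 with specificity for cAMP. The symbol stem also took in Pde10a and Pde11a of other classes, Pde12, a ribonuclease of mitochondria, and Pde4dip, an anchor protein. Pde4a was at 2.36, 2.09 and 3.53 TPM in IgG1, 3.24, 1.16 and 1.77 TPM in anti-PD-1, 5.66, 4.60 and 4.37 TPM in DOX/IgG1 and 3.63, 3.85 and 4.76 TPM across DOX/anti-PD-1 tumors. All 6 tumors with doxorubicin were above all 6 without it, also against the highest control, IgG1 replicate 3. Its log2 fold change was 0.78 in DOX/anti-PD-1 against anti-PD-1 tumors (SE 0.43; adjusted p 0.638 by limma, exact permutation p = 0.1) and 0.70 between DOX/IgG1 and IgG1 tumors.

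Pde1c gave the largest value of the describing comparison. It was at 0.29, 0.29 and 0.26 TPM in IgG1, 1.39, 0.20 and 0.61 TPM in anti-PD-1, 1.5, 3.42 and 4.87 TPM in DOX/IgG1 and 1.43, 0.73 and 1.89 TPM across DOX/anti-PD-1 tumors. Its log2 fold change was 1.65 without overlap in DOX/IgG1 against IgG1 tumors, the comparison behind the choice of families, and 2.999 when 0.1 rather than 1 was added to the TPM, so its size depends on that choice. All IgG1 tumors were below 1 TPM, so Pde1c passed the filter of that comparison only through the DOX/IgG1 tumors, where it was high. The groups with anti-PD-1 overlapped. Pde4d was the most abundant of the family on average (51.4 to 152 TPM; log2 fold change 0.25 in DOX/anti-PD-1 against anti-PD-1 tumors, with overlap), and Pde4b, Pde4dip and Pde1a ranged over 28.5 to 60.4, 14.4 to 48.8 and 8.10 to 32.5 TPM. Pde12, Pde1b, Pde10a, Pde11a and Pde4c stayed at or below 8.08, 6.04, 5.64, 2.05 and 1.80 TPM.

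**Figure D3:**
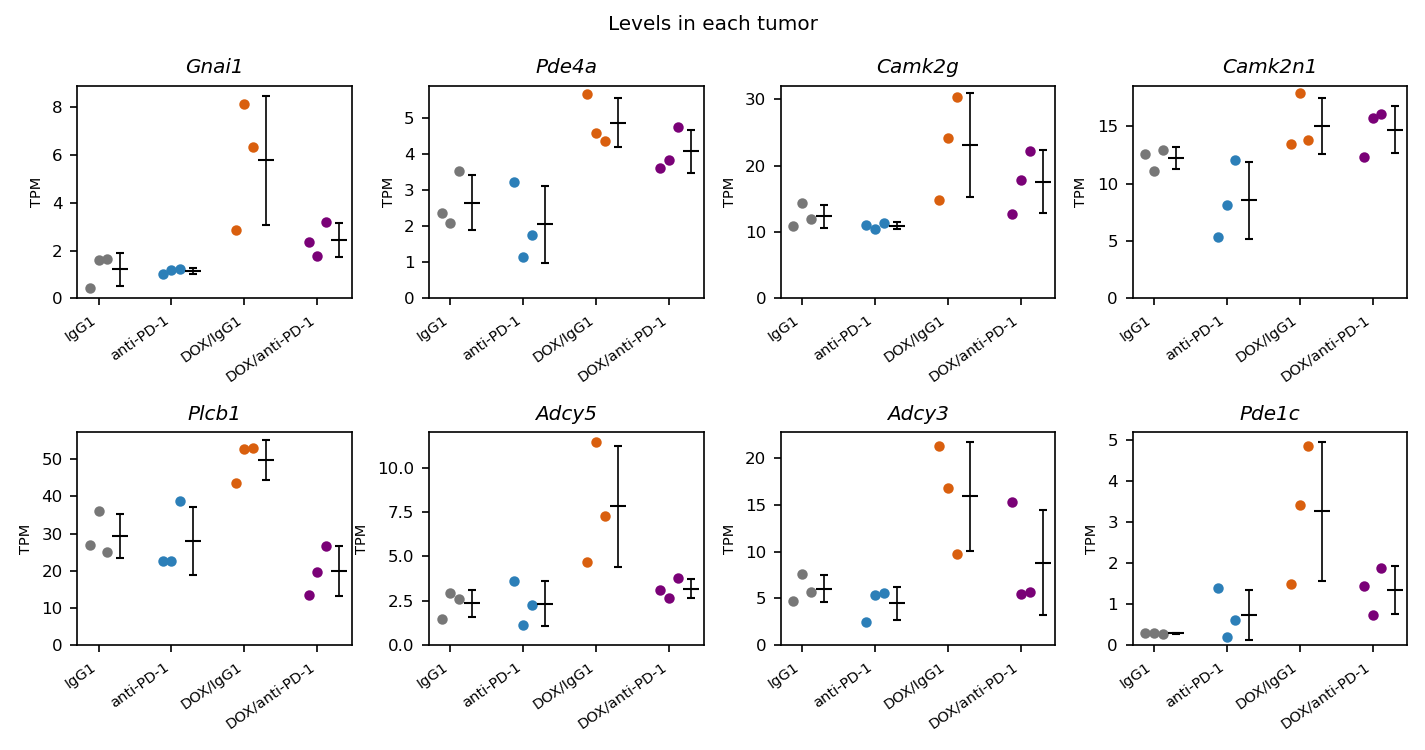
TPM of 8 members. Each point is 1 tumor, and the bar to its right gives the mean and SD of 3 tumors; for Gnai1 and Pde4a the 6 tumors with doxorubicin lie above the 6 without, and for Plcb1 and Adcy5 only the DOX/IgG1 tumors stand apart.

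Set side by side, the 2 doxorubicin comparisons share no tumor. Of 67 members that passed the filter in both, 45 (67.2%) had log2 fold changes of the same sign, beside 58.9% of 13391 genes. Groups did not overlap in either comparison in 4 members, Gnai1, Pde4a, Camk2g and Camk2n1, each higher with doxorubicin, or 5.97% of the members beside 1.40% of all genes, and 0 members were lower in both, beside 0.306% of all genes. After scaling, Camk2n1 overlapped between DOX/IgG1 and IgG1 tumors, which left 3 members, or 4.48%, beside 0.807% of all genes. In opposite directions, 0 of the 67 members separated as deposited, beside only 42 of 13391 genes. Since the comparison of DOX/IgG1 with IgG1 helped to choose the families, these shares describe the members and test nothing.

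**Figure D4:**
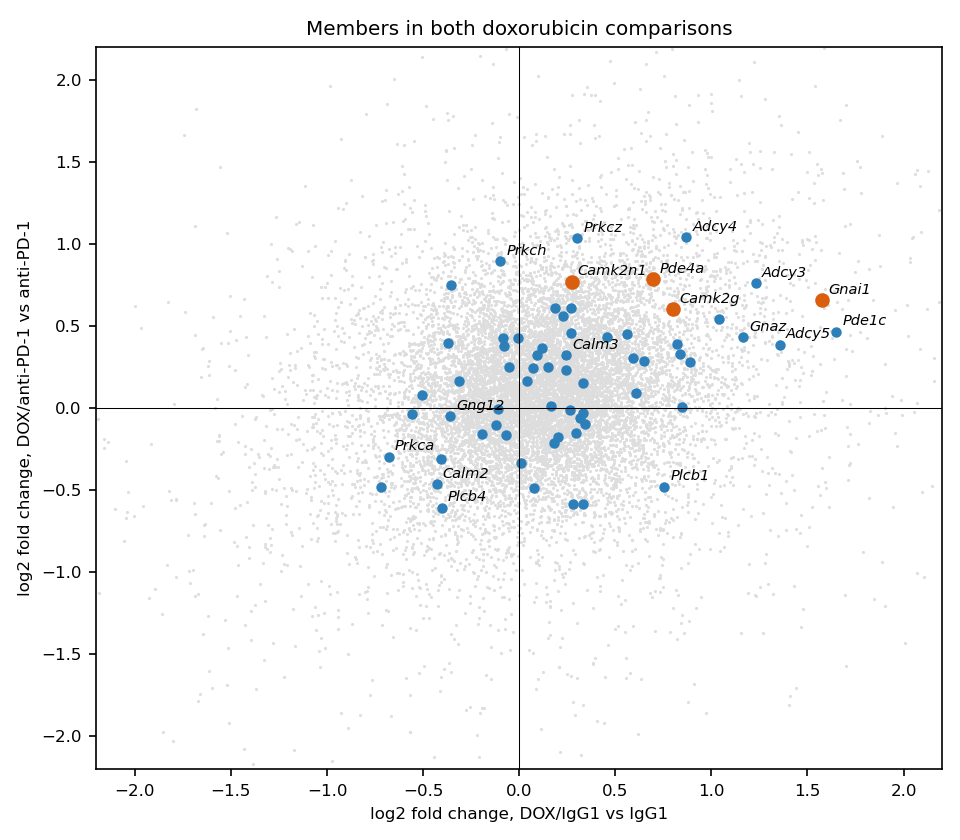
Log2 fold change of 65 members in DOX/IgG1 against IgG1 tumors (horizontal) and in DOX/anti-PD-1 against anti-PD-1 tumors (vertical), in blue, with the 4 members whose groups did not overlap in either comparison in orange. Of the 67 members in both comparisons, 2 are not drawn. Grey points are 13301 genes, without those 2 and without 88 genes outside the axes; Plcb1 lies at 0.76 and -0.48.

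In DOX/IgG1 against IgG1 tumors, 72 members passed the filter among 13874 genes, and all 3 DOX/IgG1 tumors were above all 3 IgG1 tumors in 13 members, beside 9.31% of all genes. They are the 4 members above with Gnai2, Gnaz, Gng2, Adcy3, Adcy5, Plcb1, Calm3, Pde1b and Pde1c, of which Pde1c passed the filter only through DOX/IgG1 tumors. They were below in 2 members, Gng12 and Calm2, beside 4.64% of all genes. After scaling, 8 of the 13 higher members stayed without overlap and 5 (Gnai2, Gng2, Calm3, Camk2n1 and Pde1b) overlapped, as did Calm2, while Gnb5 became higher and Prkar2a lower without overlap. This made 9 higher and 2 lower members, beside 7.29% and 6.98% of all genes. By limma, 5 of all genes (0.036%) passed both limits, and 7.73% had an unadjusted p below 0.05. The 5 became 122 genes without DOX/IgG1 replicate 1 and 0 to 2 without any other single tumor. The median log2 fold change was 0.24 for members and 0.12 for all genes. Nothing is read from these counts, as the families were chosen from this comparison, and the salivary secretory sums given above also separated the same groups, with a part in these values that was not tested.

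The other comparisons share tumors with it. Members took part in the fits of all genes there and 0 passed both limits in either, but this supports nothing, as the IgG1 and DOX/IgG1 tumors helped to choose the families, and p values of members are not given. In anti-PD-1 against IgG1 tumors, 68 members passed the filter among 13692 genes, and 3 (Prkcq, Gng5 and Gna13) were higher without overlap, beside 3.64% of all genes, and 2 (Camk2b and Gnb2) were lower, beside 6.24%. After scaling, Camk2b and Gnb2 overlapped, Prkacb and Adcy7 became higher and Camk4 lower, so that 5 were higher and 1 lower, beside 5.38% and 5.52% of all genes. By limma, 0 of all genes (0%) passed both limits, and 4.60% had an unadjusted p below 0.05. The median log2 fold change was -0.02 for members and -0.03 for all genes. Fibroblast and B cell marker sums, given above, also separated anti-PD-1 from IgG1 tumors, before and after scaling. Their part in these values was not tested. In tumors of DOX/anti-PD-1 versus DOX/IgG1, 72 members passed the filter among 13946 genes, and 2 (Gng12 and Prkar2a) were higher without overlap, beside 4.27% of all genes, and 7 (Gna14, Adcy2, Adcy5, Adcy9, Plcb1, Prkcb and Pde4b) were lower, beside 5.95%. After scaling, Adcy2 overlapped and Prkch became higher, so that 3 were higher and 6 lower, beside 4.70% and 5.75% of all genes. Again 0 of all genes (0%) passed both limits, and 4.70% had an unadjusted p below 0.05. The median log2 fold change was -0.07 for members and -0.04 for all genes.

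**Figure D5:**
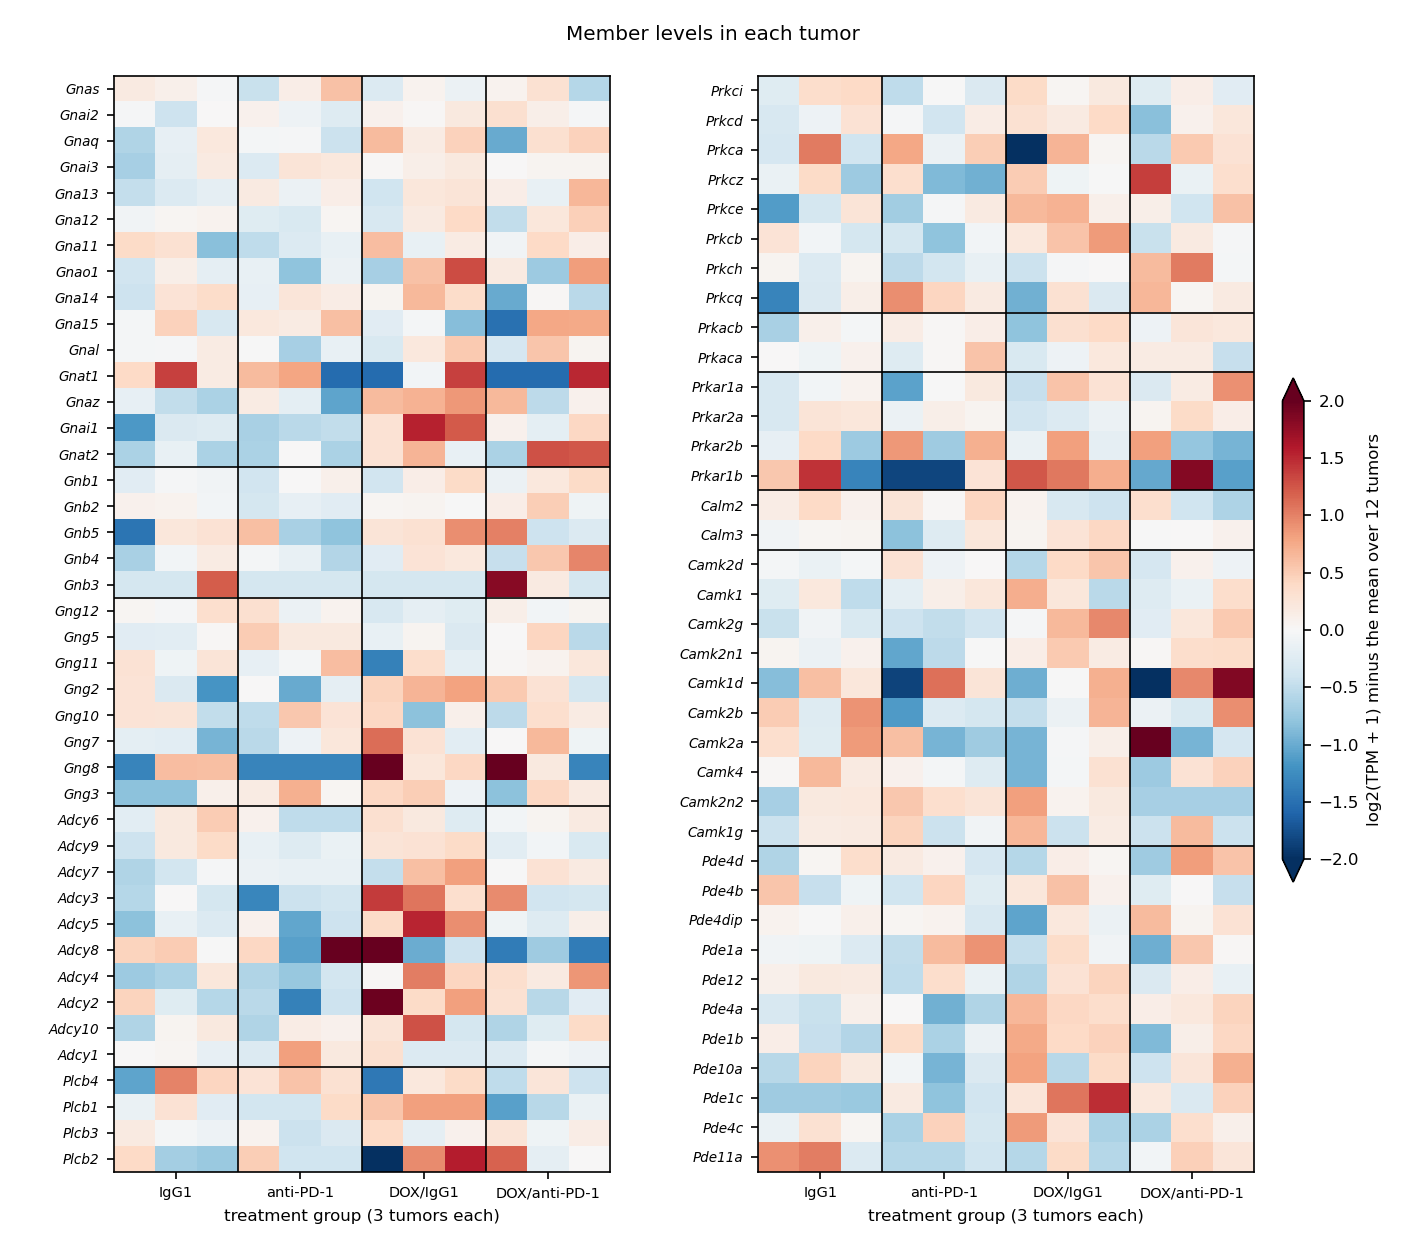
Log2(TPM + 1) of 79 members, each minus its mean over the 12 tumors, with 3 columns a group and black lines between families. Columns within a group differ, and in Prkca DOX/IgG1 replicate 1 and DOX/anti-PD-1 replicate 1 are the lowest of their groups.

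Other genes of the pathway were taken from 4 lists, drawn up with earlier results of these tumors known, of which 108 of 130 listed genes were tested in DOX/anti-PD-1 against anti-PD-1 tumors. None passed both limits by limma, and 5 had an unadjusted p below 0.05, beside 0% and 8.63% of all genes tested. Groups did not overlap in 16 genes that were higher with doxorubicin, beside 11.1% of all genes, and in 5 that were lower, beside 3.84%. In DOX/IgG1 against IgG1 tumors the counts were 14 higher and 4 lower of 111 (9.31% and 4.64% of all genes). They were 1 and 9 of 108 in anti-PD-1 against IgG1 tumors (3.64% and 6.24% of all genes) and 1 and 10 of 109 in tumors of DOX/anti-PD-1 versus DOX/IgG1 (4.27% and 5.95%). After scaling, 9 were higher and 7 lower of the 108 in DOX/anti-PD-1 against anti-PD-1 tumors (7.56% and 6.97% of all genes), and 13 and 5 of 111 in DOX/IgG1 against IgG1 tumors (7.29% and 6.98%). In the comparisons that share tumors with the latter, 3 and 8 (5.38% and 5.52%) and 1 and 9 (4.70% and 5.75%) did not overlap after scaling. Pde2a, listed under 2 identifiers, was left out of the counts.

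Among 25 tested receptors coupled to G proteins, 3 were higher without overlap in DOX/anti-PD-1 against anti-PD-1 tumors (Adrb3, Oxtr and Adcyap1r1) and 0 were lower, beside 11.1% and 3.84% of all genes. Adrb3, the beta adrenergic receptor of fat cells, was at 0.88, 2.56 and 0.60 TPM in anti-PD-1 and 10.97, 7.10 and 9.10 TPM across DOX/anti-PD-1 tumors (log2 fold change 2.17, adjusted p 0.429 by limma), groups whose adipocyte sums are given above and also did not overlap. Oxtr, the oxytocin receptor of myoepithelium, was at 25.8, 25.8 and 30.2 and 42.3, 43.7 and 69.7 TPM (log2 fold change 0.87, adjusted p 0.491). In DOX/IgG1 against IgG1 tumors, 3 receptors of 27 were higher and 2 lower, beside 9.31% and 4.64% of all genes, shares that also serve the lists below. Chrm1, a muscarinic receptor, was at 3.44, 4.52 and 5.53 TPM in IgG1 and 13.3, 11.1 and 17.8 TPM in DOX/IgG1 tumors, and Ptger1, a prostaglandin receptor, at 0, 0.76 and 3.91 and 14.5, 12.8 and 4.48 TPM. The adrenergic receptors Adra1a and Adra2a ranged over 0 to 2.67 and 0 to 1.75 TPM in all tumors. They were the 2 lower receptors, below 1 TPM in every DOX/IgG1 tumor, and passed the filter there only through the IgG1 tumors.

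Regulators of G proteins and receptors had 7 of 24 tested genes higher without overlap in DOX/anti-PD-1 against anti-PD-1 tumors and 0 lower, beside 11.1% and 3.84% of all genes. Their median log2 fold change was 0.45, and that of all genes was 0.11. The 7 were Rgs19, Rgs14, Rgs3, Arrb1, Gpsm1, Gpsm3 and Grk3, of which Rgs3, Gpsm1, Gpsm3 and Grk3 overlapped after scaling. Rgs19, which speeds GTP hydrolysis by Gi subunits, was at 22.2, 19.0 and 16.4 TPM in anti-PD-1 and 45.0, 45.1 and 31.5 TPM across DOX/anti-PD-1 tumors (log2 fold change 1.03, adjusted p 0.479 by limma), and Rgs14 at 0.89, 0.68 and 0.61 and 2.03, 1.74 and 4.21 TPM (log2 fold change 1.03, adjusted p 0.582). Rgs14 was below 1 TPM in every anti-PD-1 tumor and passed the filter only through the DOX/anti-PD-1 tumors, so its count and p support nothing. Of this list, 4 of 25 were higher and 1 lower between DOX/IgG1 and IgG1 tumors. After scaling, Ric8b and Rgs10 overlapped there, which left 3 higher and 0 lower, beside 7.29% and 6.98% of all genes. Gpsm2, which binds Gi subunits in the mitotic spindle, was at 5.28, 12.99 and 15.3 TPM in IgG1 and 25.2, 25.8 and 33.5 TPM in DOX/IgG1 tumors, Rgs9 at 3.43, 3.56 and 6.41 and 6.62, 9.27 and 6.48 TPM, and Rgs10 lower as deposited, at 45.2, 42.1 and 32.6 and 31.5, 28.5 and 24.6 TPM, with overlap after scaling.

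Of 29 tested cAMP effectors, anchors and PKA inhibitors, 1 was higher and 4 were lower without overlap in DOX/anti-PD-1 against anti-PD-1 tumors, beside 11.1% and 3.84% of all genes. Rapgef4, an exchange factor that cAMP activates, was at 9.88, 9.83 and 11.5 TPM in anti-PD-1 and 14.01, 20.0 and 15.7 TPM across DOX/anti-PD-1 tumors (log2 fold change 0.61, adjusted p 0.599 by limma). The lower genes were Creb1, Akap13, the anchor Akap5 (log2 fold change -0.86) and the phosphodiesterase Pde8b (log2 fold change -0.59), and Pde7b joined them after scaling. Of this list, 3 were higher and 0 lower between DOX/IgG1 and IgG1 tumors. After scaling, Akap5 and Atf1 became lower there, which made 3 higher and 2 lower, beside 7.29% and 6.98% of all genes. Pkib, a PKA inhibitor, was at 4.33, 11.5 and 12.2 TPM in IgG1 and 30.0, 29.2 and 23.9 TPM in DOX/IgG1 tumors, and the anchor Akap7 at 19.0, 20.0 and 27.1 and 29.9, 77.5 and 50.5 TPM.

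Of 30 tested calcium, IP3 and diacylglycerol effectors, 5 were higher (Dgkh, Dgki, Plcg1, Nos3 and Prkd2) and 1 was lower without overlap in DOX/anti-PD-1 against anti-PD-1 tumors, beside 11.1% and 3.84% of all genes. Dgki, a kinase that consumes diacylglycerol, was at 2.43, 1.55 and 7.99 TPM in IgG1, 3.29, 6.25 and 2.30 TPM in anti-PD-1, 17.2, 8.05 and 9.83 TPM in DOX/IgG1 and 7.85, 6.39 and 8.01 TPM across DOX/anti-PD-1 tumors, and its groups did not overlap in either doxorubicin comparison as deposited (log2 fold change 0.84, adjusted p 0.608 by limma, with anti-PD-1). After scaling, Dgki, Plcg1 and Prkd2 overlapped between the groups with anti-PD-1 and Itpr3 became lower, which left 2 higher and 2 lower. Dgkh, of the same class, was at 2.01, 2.02 and 1.67 and 2.77, 4.35 and 6.69 TPM (log2 fold change 0.89), and Camkk1, a kinase upstream of CaM kinases, was at 3.28, 2.34 and 2.92 and 0, 1.38 and 1.70 TPM (log2 fold change -1.04). Of this list, 4 were higher and 1 lower between DOX/IgG1 and IgG1 tumors. Dgkq was at 9.19, 14.5 and 11.7 TPM in IgG1 and 24.8, 32.6 and 21.4 TPM in DOX/IgG1 tumors, and Itpr3, a calcium channel opened by IP3, at 42.5, 47.6 and 47.7 and 40.0, 35.8 and 37.5 TPM.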

How the data were processed

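The authors trimmed reads with skewer, used STAR for alignment to mm10 and RSEM for gene levels, and deposited log2(TPM + 1) per tumor. The values were turned back to TPM, and each was a multiple of 0.01. Sums per tumor were 609418 to 725506, short of a full set of transcripts. Depth is unknown. Members and gene lists were chosen with earlier results of these data known. Comparisons used limma 3.58.1 (R 4.3.3; lmFit and eBayes with a trend, two-sided, Benjamini-Hochberg over all genes tested) on log2(TPM + 1) of the 6 tumors of 2 groups, for genes of at least 1 TPM in 3 tumors; fold changes of low genes are understated. The authors tested with DESeq2, which was not repeated as no counts are given. The script was tested on simulated data. Named members were, for each comparison, up to 5 tested members with the largest rise and up to 5 with the largest fall whose groups did not overlap, the most abundant member of each family, and members named in the plan; from each pathway list, up to 2 in each direction in both doxorubicin comparisons. Gene coordinates are from GENCODE vM21 (GRCm38, the same assembly as mm10), matched by identifier for all 84 members. Replicate numbers are tied to no common animal or date in the sources used here. Pde2a has 2 identifiers and was left out of list counts, and Adrbk1 and Adrbk2 are listed as Grk2 and Grk3. Promoters are from RefSeq (GRCm38.p6), without chromosome 18. Alternatives were another pseudocount (0.1), 2 other filters, all 12 tumors in 1 fit, median-of-ratios scaling over 11281 genes, a replicate block, each tumor left out and, added after seeing the data, tumors over 500 TPM of muscle markers left out. Figures used matplotlib 3.10.9.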

Additional observations from a re-analysis of the deposited data

How the results depend on the processing

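With any alternative, 0 members passed both limits in any comparison, and with the replicate number as a block the counts were 0 too. Tumors with the same number did not deviate together throughout: the correlation of their deviations was -0.061 to 0.148 in DOX/anti-PD-1 against anti-PD-1 tumors and 0.011 to 0.141 in DOX/IgG1 against IgG1 tumors, and not every tumor correlated best with its own number. A block gives no overlap count and left the medians at 0.24, 0.24, -0.02 and -0.07.

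Leaving out 1 tumor raised the count of members without overlap, as fewer tumors separate more easily: 14 to 25 in DOX/anti-PD-1 against anti-PD-1 (11 with all tumors), 19 to 31 in DOX/IgG1 against IgG1 (15), 9 to 18 in anti-PD-1 against IgG1 (5) and 12 to 21 for DOX/anti-PD-1 versus DOX/IgG1 (9). The median log2 fold change ranged over 0.0809 to 0.26, 0.13 to 0.34, -0.16 to 0.033 and -0.22 to -0.03. Without the tumors over 500 TPM of muscle markers, a choice made after seeing the data, the counts were 37, 25, 23 and 21. This too left fewer tumors in each comparison. The same counts over all genes were not made for any of these settings, so nothing is read from them about the members. A minimum mean of 5 TPM left 3 members without overlap in anti-PD-1 against IgG1, since fewer were tested (51).

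Of 627 alternative values of named members, 617 kept their direction. The 10 others were log2 fold changes in DOX/anti-PD-1 against anti-PD-1 tumors. Leaving out 1 tumor gave -0.0508 to 0.124 for Prkacb, -0.427 to 0.0919 for Gnas (0.0886 without anti-PD-1 replicate 3), -0.0503 to 0.721 for Pde4d and -0.154 to 0.0598 for Gng12. Scaling gave -0.105 for Prkacb. Without the muscle-rich tumors Gng12 was at 0.0226 and Camk2d at 0.0456. The cause was not tested. TPM keep no depth, so counting error is unknown.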
